A study of Mus musculus with 2 samples.

Results

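The genes described here serve the display of peptides on MHC class I molecules at the cell surface. They are 10 genes of the 32285 in the deposited matrices: the heavy chains H2-K1 and H2-D1, the light chain B2m, the peptide transporter subunits Tap1 and Tap2, tapasin (Tapbp), the immunoproteasome subunits Psmb8, Psmb9 and Psmb10, and the transactivator Nlrc5. Members were matched by gene symbol, all 10 were found once, and the match itself uses no measured value, although the list was drawn up with earlier results of these data known. Each was followed through 2 single-cell RNA-seq libraries of mouse dorsal meninges, across cell classes built from marker genes and between the Sham and TBI libraries.

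Nearly every nucleated cell displays fragments of its own proteins on MHC class I, where CD8 T cells and NK cells inspect them. Proteasomes cut the proteins, the TAP transporter moves the peptides into the endoplasmic reticulum, and tapasin holds the empty heavy chain and B2m beside TAP until a fitting peptide is bound. Interferons raise most of these genes, replace the constitutive catalytic proteasome subunits Psmb5, Psmb6 and Psmb7 by Psmb8, Psmb9 and Psmb10, and induce NLRC5, which assembles with RFX, CREB or ATF and NF-Y factors on class I promoters. The meninges, the membranes around the brain, house macrophages, dendritic cells and lymphocytes beside fibroblasts and fenestrated vessels, and so hold both cells that scan peptides and cells that show them.

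The Sham library was pooled from 5 male C57BL/6 mice that received a Sham procedure, and the TBI library from 5 that received a mild closed-skull impact, all under isoflurane. Both were taken 1 week later, the labels put the age at 10 to 12 weeks, and the study describes the mice of both groups as wild-type. Dorsal meninges, without the site that was struck, were scraped from the skullcap, live singlets were sorted without selection for a lineage, and about 4000 cells per sample entered a droplet kit that counts 3′ ends with unique molecular identifiers (UMIs). Each group is 1 library of pooled mice, so nothing here was replicated between groups, and the ranges in parentheses beside shares and ratios are 95% intervals that cover counting error only. The injury and the library cannot be told apart.

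After the filters that the study states, 2043 Sham cells and 3773 TBI cells remained, with 7866611 and 13940740 UMIs and medians of 2764 and 2663 UMIs per cell. They fell into 28 clusters, of which 25 received 1 of 19 names from marker genes, so that a name is followed by -like, and 3 stayed unnamed. Fibroblast-like cells had all 11 of their markers among their leading genes, and the Ttr-expressing choroid plexus-like and the pineal gland-like cells lie outside the meninges proper. The libraries shared 20 barcodes, 14 of them in cells kept, and 33 Sham and 114 TBI cells were predicted doublets and left in. For each class, UMIs were summed in each library and given as counts per 1000000 of the class total (CPM), and 10 classes had at least 50 cells in both libraries. Other RNA moved with the group: hemoglobin RNA was lower in TBI in all 10 of these classes, for example 1813 against 223 CPM in macrophage-like cells, and the sum of Col1a1, Col1a2, Col3a1, Dcn, Sparc and Igfbp5, genes abundant in fibroblasts, was 22.5 against 305 CPM in T cell-like cells.

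Of the 10 members, 7 lie on chromosome 17 within the mouse MHC (GENCODE vM21 annotation, GRCm38, the build of the deposited counts). In order along the chromosome they are Tapbp (chr17:33915899-33929292), H2-K1 (chr17:33996017-34000347), Psmb9 (chr17:34181987-34187764), Tap1 (chr17:34187553-34197225), Psmb8 (chr17:34197721-34201454), Tap2 (chr17:34203527-34216321) and H2-D1 (chr17:35262730-35267499). Psmb9 and Tap1 are transcribed away from each other and their annotated spans overlap. B2m is on chromosome 2 (chr2:122147686-122153083), and Psmb10 (chr8:105935735-105938444) and Nlrc5 (chr8:94434356-94527272) are on chromosome 8.

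The promoters of the 3 genes that make the class I molecule itself share a layout, which is shown because it is the assembly site of the factors named above. Windows for 8 of the 10 members were available from RefSeq (GRCm38.p6), and the 250 bases before the transcription start were searched on both strands for 3 motifs: TGACG (the core of a CREB or ATF site), ATTGG (the reverse of the CCAAT box bound by NF-Y) and GAANNGAAA (an interferon response element, TTTCNNTTC on the other strand). In H2-K1, H2-D1 and B2m, and in no other of the 8, TGACG was followed on the gene's strand by ATTGG, with 20 bases between them in each. Allowing 15 to 25 bases, that order occurred in 0.207% of 32851 promoter windows of the same length. In the stretches below, which run 5′ to 3′ on the gene's strand, the capitals mark these motifs.
B2m: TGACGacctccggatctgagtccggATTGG
H2-K1: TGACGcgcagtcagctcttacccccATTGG
H2-D1: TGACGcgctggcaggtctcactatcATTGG
The first stretch is chr2:122147609-122147638 on the plus strand, 78 to 49 bases before the start of B2m. The second is chr17:34000359-34000388 on the minus strand, 41 to 12 bases before the start of H2-K1, and the third is chr17:35262993-35263022 on the plus strand, 101 to 72 bases before the start of H2-D1. Starts are those of RefSeq, and for H2-D1 that start, with the stretch before it, lies inside the longer GENCODE span given above. An interferon response match, TTTCACTTC, stood further upstream in H2-K1 and H2-D1 alone of the 8, and this motif was found in 6.31% of all windows. The longer H2-K1 stretch, chr17:34000359-34000437 on the minus strand, holds it together with the pair.
H2-K1, longer stretch: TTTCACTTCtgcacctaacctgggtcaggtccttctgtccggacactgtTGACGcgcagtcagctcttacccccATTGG
In any order and on either strand, TGACG was found in 5 of the 8 and ATTGG in 6 of the 8, against 17.8% and 33.8% of all windows. The windows of Psmb9 and Tap1 overlap, and the same bases gave the matches of both genes. Each of these matches was thus counted for both genes, so the 8 windows are not separate stretches. A match is a match of letters, and no binding was measured in these data.

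UMIs of the heavy chains and B2m were found in every named class, some at low levels. Among the larger classes, T cell-like, ILC2 or Th2-like and NK-like cells held the most H2-K1. H2-K1 stood at 4338 CPM in Sham and 4427 CPM in TBI in T cell-like cells, 4270.0 CPM in Sham and 4370.4 CPM in TBI in ILC2 or Th2-like cells and 4042 CPM in Sham and 4145 CPM in TBI in NK-like cells. These 3 classes overlapped in counting error and between libraries, and together lay above every other of the 10 larger classes. Endothelial-like cells came next with 2088 CPM in Sham and 2233 CPM in TBI, apart from the classes on either side. B cell-like, macrophage-like and immature B cell-like cells, between 1610.1 and 1864 CPM, could not be put in order, and dendritic-like cells (1192 CPM in Sham and 1304 CPM in TBI) lay below them. Fibroblast-like cells held 479.6 CPM in Sham and 487 CPM in TBI, and choroid plexus-like cells 93.0 CPM in Sham and 100.3 CPM in TBI. Among the smaller classes, migratory dendritic-like cells, which carry Ccr7 and Fscn1 and numbered 24 and 30 cells, reached 4106 CPM in Sham and 4839.6 CPM in TBI.

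Shares of cells with a UMI showed the same steps once each cell was thinned to 1000 UMIs, which left out 388 Sham and 539 TBI cells. H2-K1 was then seen in 96.5% of Sham and 98.3% of TBI T cell-like cells, against 34.5% and 32.1% of fibroblast-like cells and 11.1% and 5.98% of choroid plexus-like cells. Unthinned, the fibroblast-like shares were 54.3% and 59.1%, and the choroid plexus-like shares 16.7% and 13.4%. Free RNA in droplets gives UMIs to cells that do not express a gene, and barcodes with over 5% hemoglobin UMIs, which hold much red cell RNA, held H2-K1 in 16.6% and 16.1% at medians of 3038 and 2536 UMIs. The unthinned choroid plexus-like shares, at medians of 3000 and 3542 UMIs, were close to these, and the part of free RNA in them was not tested. Those barcodes are shallow apart from hemoglobin, which took 70.4% and 66.9% of their UMIs at the median, and without hemoglobin they held 629 and 1121 CPM of H2-K1, above the choroid plexus-like level.

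H2-D1 and B2m were spread more evenly over the immune classes than H2-K1. H2-D1 stood at 3969.8 CPM in Sham and 4594 CPM in TBI in NK-like cells, 2584 CPM in Sham and 2999 CPM in TBI in macrophage-like cells and 2035 CPM in Sham and 2348 CPM in TBI in dendritic-like cells, and from macrophage-like to dendritic-like cells neighbours among the 5 classes of that stretch could not be separated. B2m ran from 2185 CPM in Sham and 2374 CPM in TBI in T cell-like cells down to 1073 CPM in Sham and 1245 CPM in TBI in B cell-like cells with no neighbouring pair apart. Both genes then dropped to fibroblast-like cells, with 648 CPM in Sham and 750.1 CPM in TBI for H2-D1 and 759.7 CPM in Sham and 613 CPM in TBI for B2m. UMIs come from 3′ ends and are not divided by transcript length, so these values are compared between classes and not between genes. Class I genes of the Q and T regions are closely similar to the heavy chains, and reads they share could be split or lost in the authors' counting, so heavy chain levels are uncertain to that extent.

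**Figure D1:**
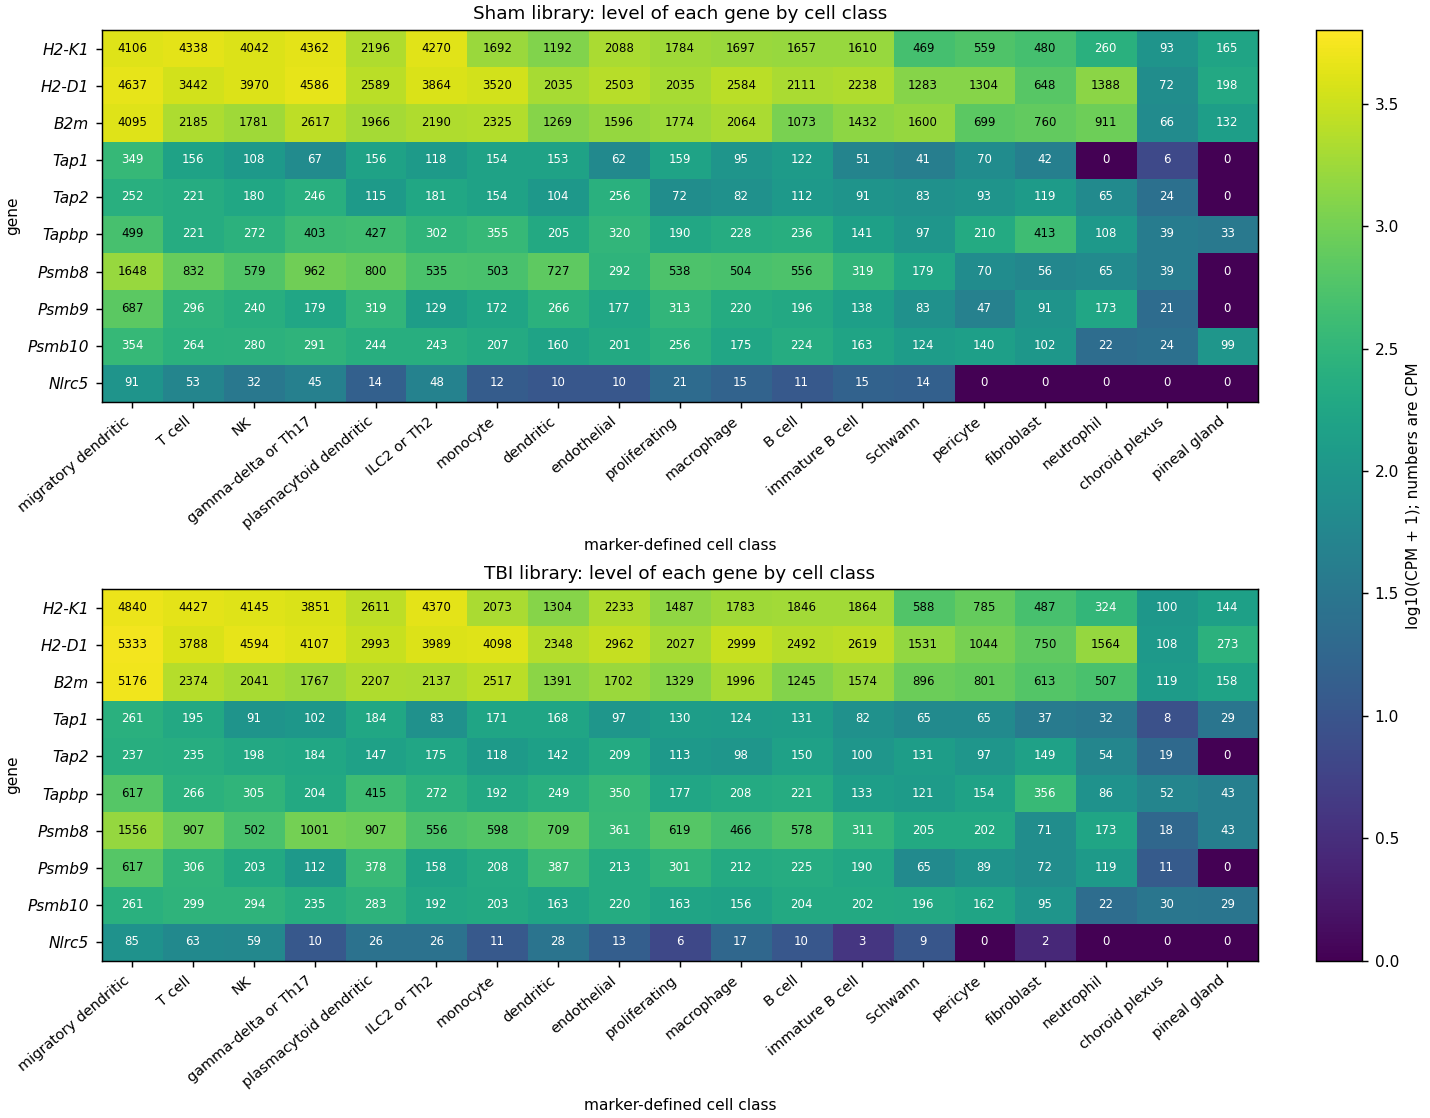
CPM of each of the 10 genes (log scale, summed UMIs per 1000000 of the class) by class in the Sham and TBI libraries. Among the 10 larger classes, H2-K1, H2-D1 and B2m lie lowest in the fibroblast-like and choroid plexus-like classes, while Tapbp is highest in fibroblast-like cells.

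The transporter and tapasin were ordered over the larger classes somewhat differently from the heavy chains. Tap1 was highest in T cell-like cells (156 CPM in Sham and 195 CPM in TBI) and dendritic-like cells (153 CPM in Sham and 168 CPM in TBI). Tap2, its partner subunit, was highest in endothelial-like cells in Sham and in T cell-like cells in TBI. Endothelial-like cells held 256 CPM in Sham and 209 CPM in TBI, a class where Tap1 stood at 61.7 CPM in Sham and 97.3 CPM in TBI. T cell-like cells held 221 CPM in Sham and 235 CPM in TBI, a level not separable from that of endothelial-like cells. In fibroblast-like cells Tap1 (42.0 CPM in Sham and 36.5 CPM in TBI) was likewise far down its order and Tap2 (119 CPM in Sham and 149 CPM in TBI) in the middle of its own. Tapbp, which holds the heavy chain for loading, was highest in fibroblast-like cells with 413 CPM in Sham and 356 CPM in TBI, although neighbours in its order overlapped down to immature B cell-like cells.

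Nlrc5, the transactivator of class I genes, gave few UMIs, 145 in Sham and 266 in TBI over all cells. It stood at 52.6 CPM in Sham and 62.5 CPM in TBI in T cell-like cells (35 UMIs in Sham and 62 in TBI) and 32.0 CPM in Sham and 58.8 CPM in TBI in NK-like cells, and none of its neighbouring classes could be separated. Migratory dendritic-like cells held 91.2 CPM in Sham and 85.4 CPM in TBI on 17 and 18 UMIs. No UMI was seen in choroid plexus-like cells of either library, which with 3 counts as the floor allows up to 9.003 CPM in Sham and 3.81 CPM in TBI. Fibroblast-like cells had 0 UMIs in Sham, which allows up to 10.5 CPM, and 3 in TBI.

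The balance between the 2 heavy chains differed between classes. Of the UMIs of H2-K1 and H2-D1 together, H2-K1 held 55.8% (54.4 to 57.1) in Sham and 53.9% (52.8 to 55.0) in TBI in T cell-like cells. The share was 45.5% (43.6 to 47.3) in Sham and 43.0% (41.8 to 44.2) in TBI in endothelial-like cells, 39.6% (38.4 to 40.8) in Sham and 37.3% (36.6 to 38.0) in TBI in macrophage-like cells and 36.9% (35.5 to 38.4) in Sham and 35.7% (34.5 to 36.9) in TBI in dendritic-like cells. In neutrophil-like cells, of which there were 16 and 26, it was only 15.8% (8.43 to 26.0) in Sham and 17.1% (11.9 to 23.6) in TBI. These classes stood in the same order in both libraries. Myeloid names were not all low, since migratory dendritic-like cells had 47.0% in Sham and 47.6% in TBI, and B cell-like cells, at 44.0% and 42.5%, lay close to endothelial-like cells. Within T cell-like, endothelial-like and macrophage-like cells the share was lower in TBI by a few points, with intervals that just met in the first 2 and did not meet in macrophage-like cells.

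**Figure D2:**
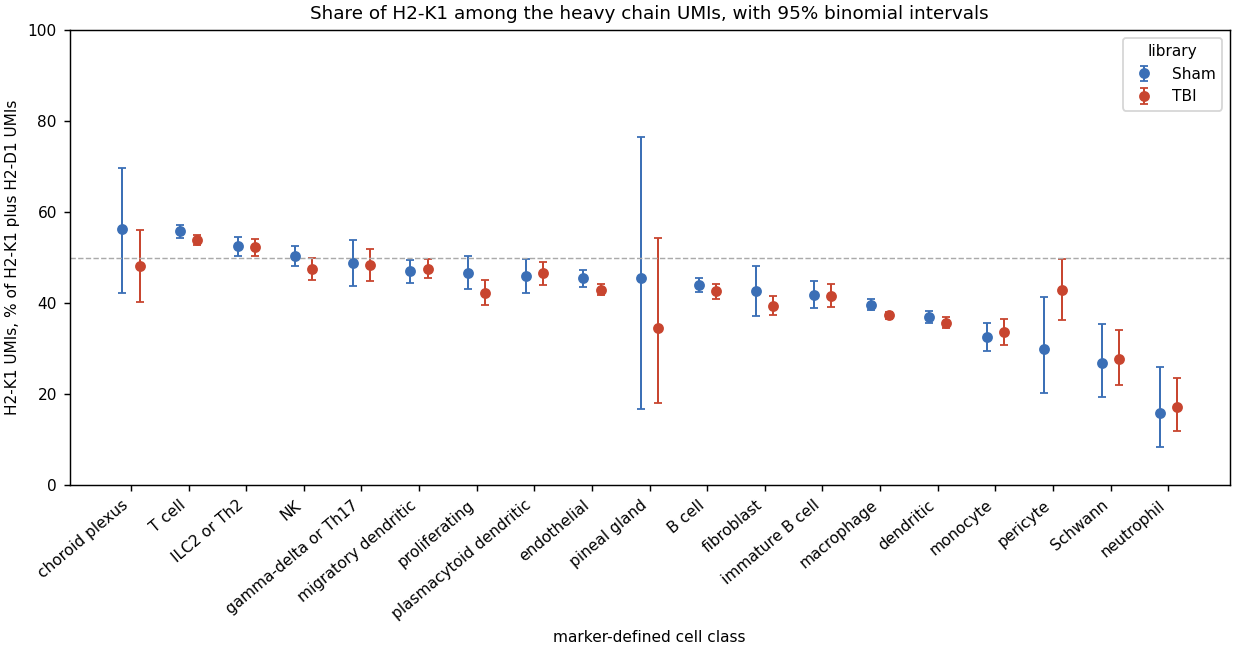
Percent of H2-K1 among the summed UMIs of H2-K1 and H2-D1 in each class, with Sham and TBI points and exact 95% binomial intervals. T cell-like cells lie above 50% in both libraries and neutrophil-like cells below 20%.

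Cells also differed in which proteasome they make RNA for. Each immunoproteasome subunit replaces 1 constitutive subunit, Psmb8 for Psmb5, Psmb9 for Psmb6 and Psmb10 for Psmb7, and the share of the inducible member within the 3 pairs does not move with the depth of a cell. Migratory dendritic-like cells had the highest share, 86.4% (83.3 to 89.1) in Sham and 85.4% (82.3 to 88.1) in TBI. It was 74.6% (72.1 to 77.0) in Sham and 76.9% (75.0 to 78.8) in TBI in T cell-like cells, 73.2% (71.3 to 75.0) in Sham and 74.9% (73.2 to 76.5) in TBI in dendritic-like cells and 70.0% (67.9 to 72.0) in Sham and 70.4% (69.0 to 71.8) in TBI in macrophage-like cells. Endothelial-like cells, which are not immune cells, came below them with 61.9% (58.1 to 65.6) in Sham and 64.8% (62.4 to 67.1) in TBI. Immature B cell-like cells, with Rag1 and Igll1 among their leading genes, had 48.7% (43.4 to 54.1) in Sham and 55.0% (50.1 to 59.8) in TBI, well under the 70.9% (68.5 to 73.1) in Sham and 69.9% (67.2 to 72.5) in TBI of B cell-like cells.

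Fibroblast-like cells lay lower and choroid plexus-like cells had few UMIs of the inducible subunits. The share was 43.8% (36.1 to 51.8) in Sham and 37.3% (34.4 to 40.2) in TBI in fibroblast-like cells, where the Psmb8 pair held 30.8% (18.7 to 45.1) in Sham and 28.5% (24.3 to 33.1) in TBI, and the Psmb10 pair 63.0% (47.5 to 76.8) in Sham and 60.8% (54.6 to 66.7) in TBI. In choroid plexus-like cells it was 9.43% (6.36 to 13.3) in Sham and 6.53% (4.84 to 8.59) in TBI. Among the 60 Sham choroid plexus-like cells, all 13 Psmb8 UMIs came from 1 cell, and 83.3% of the H2-D1 UMIs likewise came from 1 cell. Without cells holding a UMI of Ptprc, Laptm5, Tyrobp, Coro1a, Cd52 or Cd74, a step added after the data had been seen, the choroid plexus-like share was 3.55% in 45 Sham cells and 2.75% in 72 TBI cells. H2-K1 in these cells was 37.5 and 18.2 CPM, and 17.8% of the Sham and 9.72% of the TBI cells held a UMI of it.

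Between Sham and TBI the intervals of the immunoproteasome share overlapped in each of the 10 larger classes. One pair stood out in dendritic-like cells, where Psmb9 held 61.7% (57.7 to 65.6) in Sham and 70.6% (67.5 to 73.6) in TBI of the pair with Psmb6 and the intervals did not meet. The Psmb8 pair there was level, with 78.7% (76.4 to 80.9) in Sham and 79.3% (77.1 to 81.3) in TBI, and the Psmb10 pair lower in TBI with overlapping intervals, 72.4% (67.1 to 77.3) in Sham and 68.2% (63.3 to 72.8) in TBI. In immature B cell-like cells the Psmb10 pair went from 52.9% to 69.1%, with intervals that met.

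**Figure D3:**
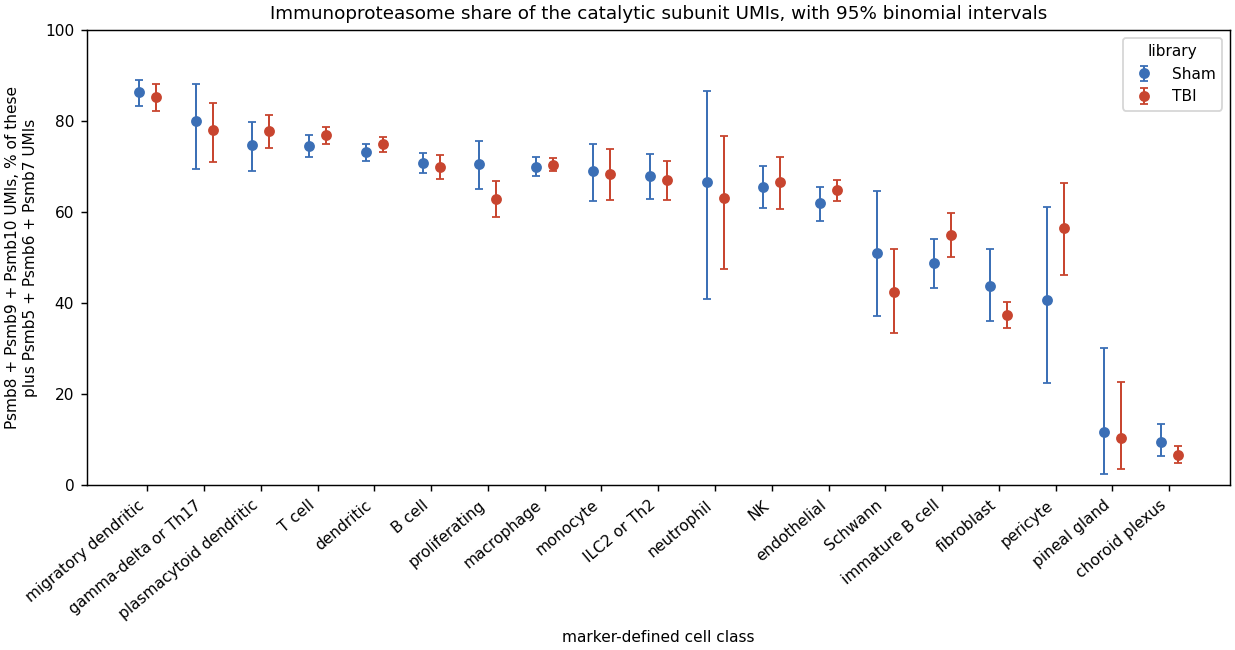
Percent of Psmb8, Psmb9 and Psmb10 among their UMIs and those of Psmb5, Psmb6 and Psmb7 in each class, with Sham and TBI points and exact 95% binomial intervals. The classes run from migratory dendritic-like cells at over 85% to choroid plexus-like cells at under 10%, and the Sham and TBI intervals overlap in each of the 10 larger classes.

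For the comparison of injury with Sham, the whole libraries and the single classes gave different directions for H2-K1. Over all cells kept, H2-K1 had 1928 CPM in Sham and 1761 CPM in TBI, a log2 ratio of TBI over Sham of -0.13 (-0.16 to -0.10). Within the 10 larger classes its ratio was above 0 in 10 of 10, from 0.02 to 0.21. Not all of these intervals excluded 0: fibroblast-like cells had 0.02 (-0.24 to 0.29) and choroid plexus-like cells 0.09 (-0.51 to 0.76). H2-D1 had 2372 and 2379 CPM over all cells, a ratio of 0.00 (-0.02 to 0.03). It was above 0 in 10 of 10 classes, from 0.05 to 0.56, the last in choroid plexus-like cells, where few cells held most of its UMIs. Cells with a UMI of Ptprc, Laptm5, Tyrobp, Coro1a, Cd52 or Cd74 were also left out in endothelial-like, fibroblast-like and choroid plexus-like cells. In that order, H2-K1 was then at 0.11, -0.02 and -1.02, and H2-D1 at 0.25, 0.23 and -1.04. The choroid plexus-like ratios rested there on 9 and 7 UMIs of H2-K1 and 4 and 3 of H2-D1. The makeup of the libraries differed: fibroblast-like cells, low in both genes, held 3.63% of Sham and 12.2% of TBI UMIs, and B cell-like cells 14.3% and 5.87%. With each class of the TBI library weighted by its Sham share of UMIs, a step added after the data had been seen, the ratio was 0.09 for H2-K1 and 0.19 for H2-D1.

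Several other members also had a higher ratio under that weighting, while Tapbp went from 0.06 to 0.03. Psmb8 went from -0.27 (-0.32 to -0.21) over all cells to 0.02, Psmb10 from -0.22 (-0.32 to -0.13) to -0.04, and B2m from -0.07 (-0.11 to -0.04) to 0.07. In the classes, B2m was above 0 in 7 of 10 and Psmb8 in 5 of 10. The whole-library ratios therefore hold the cell makeup of the sample as well as the level in its cells, and which cells a scraped and sorted preparation yields can itself differ between libraries.

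**Figure D4:**
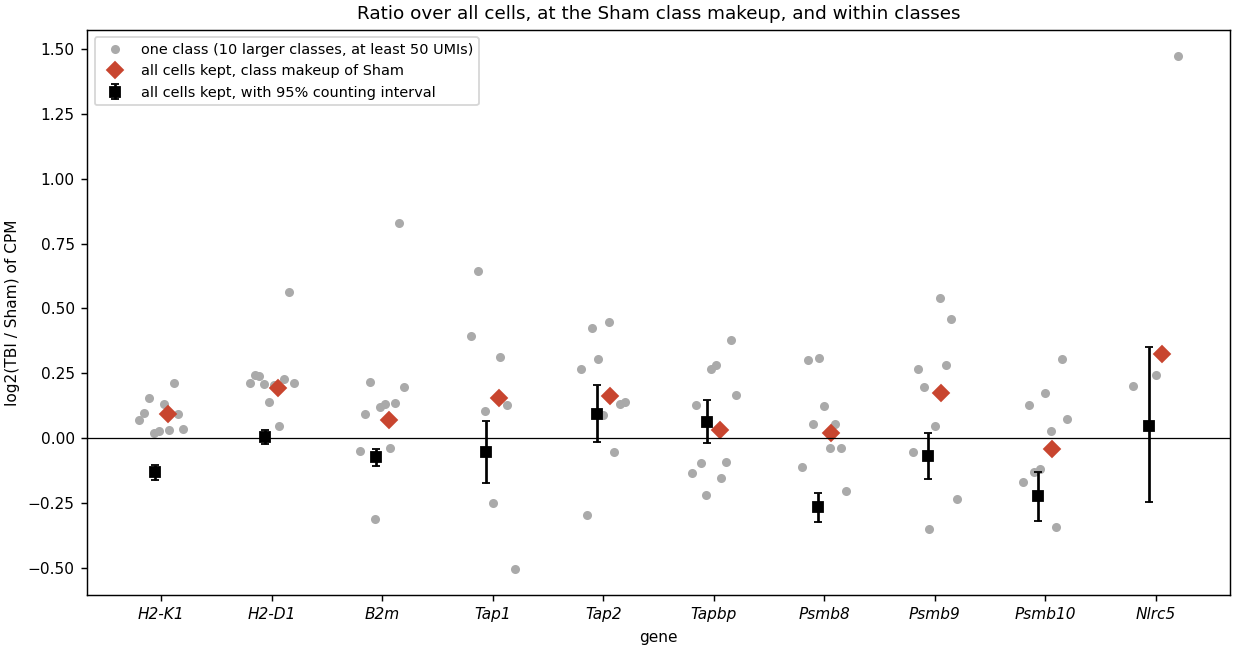
Log2 ratio of TBI over Sham for each gene over all cells kept, over all cells at the Sham makeup of classes, and in each of the 10 larger classes (small points), with a line at 0. H2-K1 and H2-D1 lie above 0 in all 10 classes, while over all cells kept H2-K1 lies below 0. The class points carry no intervals, and some of those intervals held 0.

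In macrophage-like cells (334 in Sham and 720 in TBI) the members were close to level, and Tap1 and H2-D1 were higher in TBI. Tap1 gave 145 UMIs in Sham and 435 in TBI, or 94.6 CPM in Sham and 124 CPM in TBI, a log2 ratio of 0.39 (0.12 to 0.68). Genes with at least 50 UMIs were counted as past the fold threshold where their log2 ratio lay beyond 0.32 in either direction. Tap1 was the 1 of 10 members past it upward and 0 were past it downward, where 14.2% and 10.7% of all 7674 genes tested were. H2-D1 stood at 2584 CPM in Sham and 2999 CPM in TBI, a ratio of 0.21 (0.16 to 0.27) that excluded 0 in counting error but stayed under that fold. B2m (-0.05, -0.11 to 0.01), Tapbp (-0.13, -0.32 to 0.06) and the 3 immunoproteasome subunits lay slightly under 0. The median over the 10 members was 0.01, beside 0.01 over all genes, and 5 of 10 were above 0.

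The macrophage-like class joined 3 clusters, and the heavy chain ratios were largest in the one with the fewest UMIs. In cluster 8, led by Ccl8 and Cbr2 and with medians of 815 and 999 UMIs per cell, H2-K1 had 564 CPM in Sham and 1013 CPM in TBI, a ratio of 0.84 (0.43 to 1.27). H2-D1 there had a ratio of 0.64 (0.38 to 0.92), and Psmb8 was below 0 at -0.38 (-0.91 to 0.17). In the Folr2 and Fcrls cluster 4 and the Cx3cr1 and Trem2 cluster 5 the H2-K1 ratios were 0.05 (-0.05 to 0.16) and 0.02 (-0.07 to 0.11), and those of H2-D1 0.21 (0.13 to 0.30) and 0.17 (0.09 to 0.24). H2-D1 thus had a ratio above 0 in all 3 clusters. The part that the shallow depth of cluster 8 has in its values was not tested.

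Endothelial-like cells (308 and 580) had 8 of 9 tested members above 0, with Tap2 the exception. Tap1 gave 38 UMIs in Sham and 129 in TBI, or 61.7 CPM in Sham and 97.3 CPM in TBI, a ratio of 0.64 (0.13 to 1.22), and was the 1 of 9 members past the fold upward, with 0 downward, against 17.4% and 15.6% of all genes. H2-D1 (0.24, 0.16 to 0.33) and Psmb8 (0.30, 0.05 to 0.56) were higher in TBI with intervals above 0, while Tap2 was lower at -0.30 (-0.58 to 0.00). The median of the members was 0.13, beside 0.01 over all genes. The ratios of the 2 transporter subunits thus had opposite signs in these cells, and their difference was not tested.

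Immune RNA in endothelial-like cells, the sum of Ptprc, Laptm5, Tyrobp, Coro1a, Cd52 and Cd74, moved with the group, from 253 to 904 CPM. In the 227 Sham and 335 TBI cells without any such UMI, Tap1 had 60.6 and 76.9 CPM, a ratio of 0.33 (-0.34 to 1.06) whose interval held 0. H2-D1 in the same cells kept its ratio, 0.25 (0.14 to 0.36), as did Tap2, -0.30 (-0.65 to 0.07), and the median of the 9 members was 0.22. B2m was at 0.01 (-0.13 to 0.15) there, against 0.09 (-0.02 to 0.20) in all endothelial-like cells. Psmb8 was at 0.22 (-0.10 to 0.54), an interval that held 0. Tapbp, Psmb9 and Psmb10 had higher ratios there than in all endothelial-like cells.

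Within the endothelial-like class the 4 clusters did not carry equal ratios. In cluster 12, led by Vwf and Selp, known from veins, B2m rested on 71 and 518 UMIs and had 621 against 1416 CPM, a ratio of 1.18 (0.83 to 1.57), and H2-D1 had 0.78 (0.52 to 1.04). In cluster 2, led by Gpihbp1 and Kdr, known from capillaries, B2m was at 0.04 (-0.10 to 0.17) and H2-D1 at 0.23 (0.12 to 0.33). In cluster 14, led by Sema3g and Gja5, known from arteries, Tap1 had 2 UMIs in Sham and 24 in TBI and Psmb8 a ratio of 0.70 (0.08 to 1.39). H2-D1 was above 0 in all 4 clusters. The median over all genes was 0.14 in cluster 12, so its ratios are set against a shifted centre, and differences between clusters were not tested. The part of immune RNA in the ratios of single clusters was not tested either.

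B cell-like cells (367 and 288) were higher in TBI for the molecule itself and for Tap2. H2-K1 stood at 1657 CPM in Sham and 1846 CPM in TBI with a ratio of 0.16 (0.06 to 0.25), H2-D1 at 0.24 (0.15 to 0.33) and B2m at 0.21 (0.09 to 0.34), all 3 with intervals above 0. Tap2, with 126 UMIs in Sham and 123 in TBI, stood at 112 CPM in Sham and 150.3 CPM in TBI and had a ratio of 0.43 (0.06 to 0.80) and was the 1 of 9 members past the fold upward, with 0 downward, against 14.4% and 13.9% of all genes. Psmb10 (-0.13, -0.42 to 0.15) and Tapbp (-0.09, -0.38 to 0.18) were the 2 below 0, with intervals that held 0. The median of the 9 members was 0.16, beside 0.01 over all genes.

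In T cell-like cells (183 and 263), one of the 3 classes where H2-K1 was highest, all 10 members had a ratio above 0 but none passed the fold, against 14.0% of all genes upward and 15.7% downward. H2-D1 stood at 3442 CPM in Sham and 3788 CPM in TBI, a ratio of 0.14 (0.06 to 0.21), and B2m at 0.12 (0.02 to 0.22), both small and with intervals just above 0. The largest ratios, those of Tap1 (0.31, -0.03 to 0.68) and Tapbp (0.27, -0.03 to 0.57), had intervals that held 0. The median was 0.13, beside -0.01 over all genes. Of the 6 immune genes summed above, Cd74, an antigen-presenting cell gene, was past the fold in these cells, at 408 CPM in Sham and 2886 CPM in TBI, and Tyrobp stood at 379.9 CPM in Sham and 459.9 CPM in TBI. The part of such RNA in the T cell-like ratios was not tested.

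The heavy chain ratios of T cell-like cells differed with the coreceptor gate. In the 40 Sham and 40 TBI cells with a Cd4 UMI and none of Cd8a or Cd8b1, H2-K1 was lower in TBI, 5037 against 4023 CPM, a ratio of -0.32 (-0.47 to -0.18). H2-D1 there had a ratio of -0.39 (-0.56 to -0.22). In the 35 and 62 cells with a CD8 UMI and none of Cd4, H2-K1 was level at 0.00 (-0.14 to 0.14) and H2-D1 higher at 0.25 (0.09 to 0.40). Over the 9 members tested in each gate, the median ratio was -0.14 in the Cd4 gate, beside -0.04 over all genes. In the CD8 gate it was -0.001, beside -0.01. The class holds further cells with UMIs of neither, so these gated values are not parts that add up to it, and the difference between the gates was not tested.

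Dendritic-like cells (140 and 197), the deepest of these 6 classes with medians of 10912 and 8372 UMIs per cell, had the most members past the fold. Of 10 members 3 were past it upward and 0 downward, against 14.0% and 13.2% of all genes. Psmb9 gave 375 UMIs in Sham and 630 in TBI, or 266 CPM in Sham and 387 CPM in TBI, a ratio of 0.54 (0.35 to 0.73). Tap2 stood at 104 CPM in Sham and 142 CPM in TBI, a ratio of 0.45 (0.15 to 0.76), and Nlrc5 gave 14 UMIs in Sham and 46 in TBI, or 9.92 CPM in Sham and 28.2 CPM in TBI, a ratio of 1.47 (0.62 to 2.49). H2-K1, H2-D1, B2m and Tapbp were also higher with intervals above 0, from 0.13 to 0.28, and Psmb8 alone was below 0, at -0.04 (-0.16 to 0.09). The median was 0.17, beside -0.01 over all genes.

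Within the dendritic-like class, Psmb9 stood higher in 1 of the gates set by marker genes. Cells with Xcr1 or Clec9a and no Cd209a, markers of the lineage that cross-presents antigen to CD8 T cells, numbered 16 in Sham and 35 in TBI and held 602 and 806 CPM of Psmb9, a ratio of 0.42 (0.09 to 0.76). Cells with Cd209a and neither of the others numbered 87 and 117 and held 207 and 250.1 CPM, a ratio of 0.27 (-0.01 to 0.56). Psmb9 had a ratio above 0 in both gates, and within each library its level was higher in the first. High Psmb9 was not particular to that gate. Migratory dendritic-like cells, a class apart, gave 128 Psmb9 UMIs in Sham and 130 in TBI, 81.0% and 80.2% of the pair with Psmb6. Tap1 in the first gate had 292 and 346 CPM and in the second 138 and 109 CPM. Nlrc5 had 0 UMIs in Sham and 19 in TBI in the first gate, where 3 counts in Sham allow up to 17.9 CPM against 49.9 CPM in TBI, and 9 and 17 UMIs in the second. Tap1 had a ratio of -0.34 (-0.73 to 0.05) in the second gate. Over the 9 members tested in each gate, the median ratio was 0.24 in the first and 0.14 in the second, beside 0.00 and -0.01 over all genes. The first gate held 16 of 140 Sham and 35 of 197 TBI cells of the class. The part of that makeup in the class ratios was not tested.

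Fibroblast-like cells (81 and 467) were the only one of these 6 classes whose members had a median ratio below 0. B2m stood at 759.7 CPM in Sham and 613 CPM in TBI, a ratio of -0.31 (-0.52 to -0.09), the only member whose interval lay under 0. Psmb9, with 26 UMIs in Sham and 123 in TBI, stood at 91.0 CPM in Sham and 72.5 CPM in TBI, a ratio of -0.35 (-0.95 to 0.34), and was the 1 of 9 members past the fold downward, with 0 upward, against 24.5% and 18.5% of all genes. H2-D1 (0.21, -0.01 to 0.44) and Psmb8 (0.31, -0.41 to 1.20) were above 0 with intervals that held 0, and H2-K1 was level at 0.02 (-0.24 to 0.29). The median was -0.12, beside -0.03 over all genes, and 4 of 9 were above 0. Immune RNA in these cells was 151 CPM in Sham and 1482 CPM in TBI. In the 57 and 254 cells without any such UMI, B2m was at -0.50 (-0.77 to -0.21), Psmb8 at -0.86 (-1.77 to 0.18) and Psmb9 at -0.24 (-1.10 to 0.81). Psmb8 there rested on 14 and 34 UMIs, under the minimum used for calls.

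**Figure D5:**
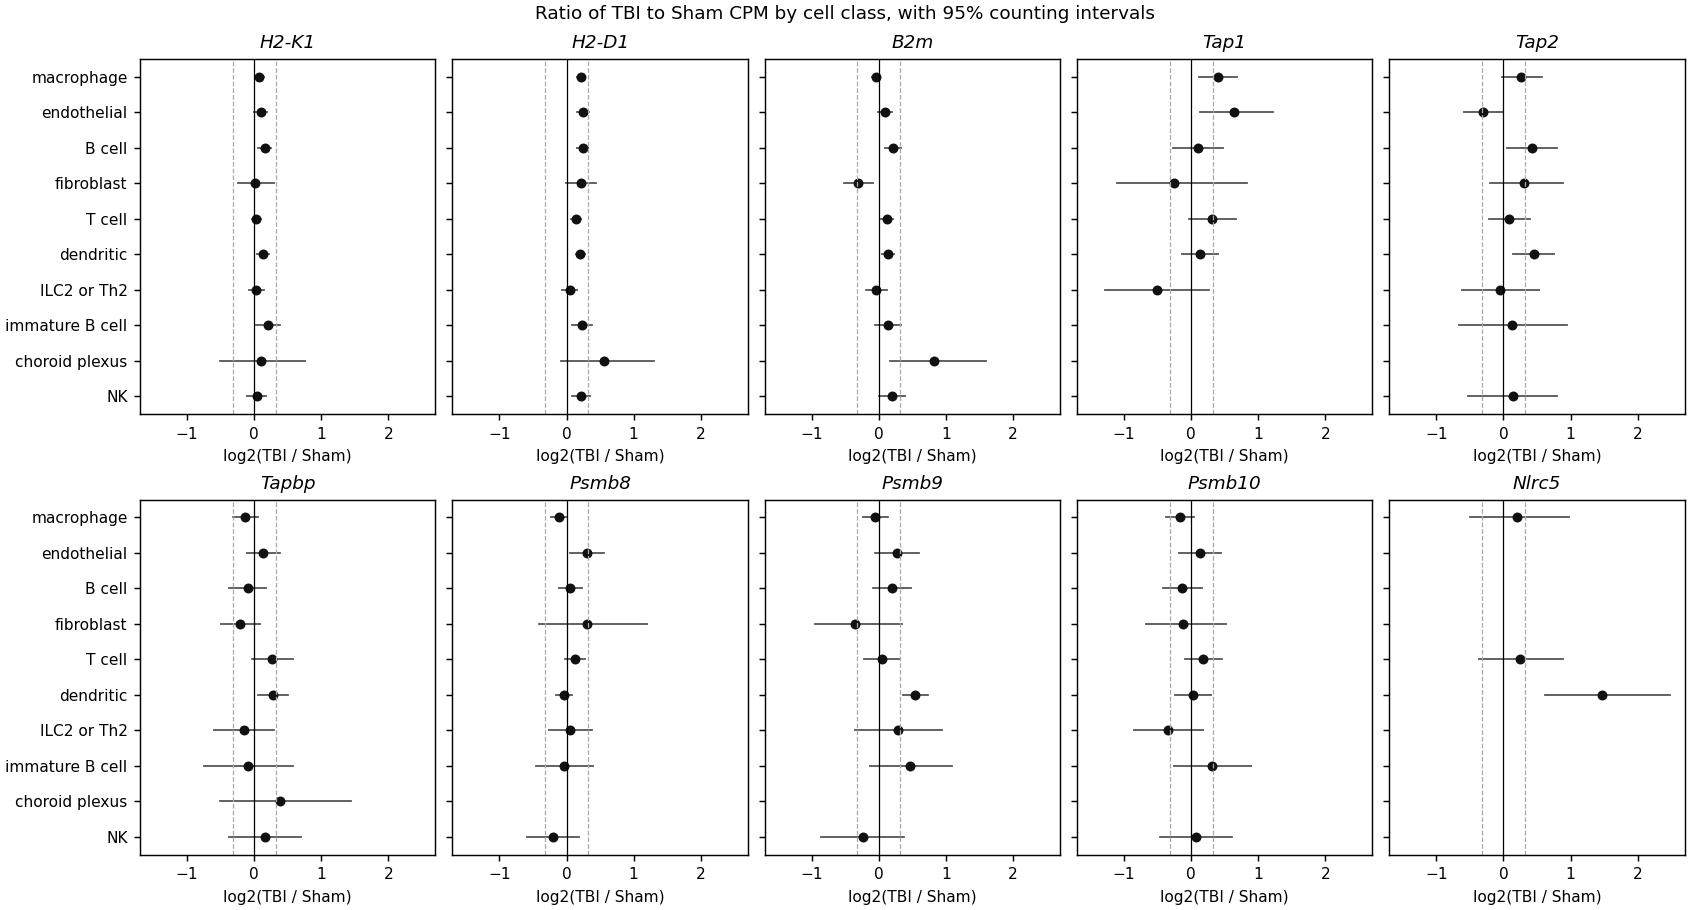
Log2 ratio of TBI over Sham (horizontal axis) by class of each gene with at least 50 UMIs there, with 95% counting intervals, dashed lines at 0.32 either side and a line at 0. H2-D1 lies above 0 in all 6 classes described, and Tap1 and Tap2 point in opposite directions in endothelial-like cells. Psmb9 and, on few UMIs, Nlrc5 stand out in dendritic-like cells.

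H2-D1 pointed the same way in every one of these classes. Its interval lay above 0 in 5 of the 6 classes described, with fibroblast-like cells the exception, and its ratio there ran from 0.14 in T cell-like to 0.24 in endothelial-like cells. Under every alternative of processing tried on whole classes it stayed above 0 in all 6. In 4 of the classes 1 of 9 or 10 members was past the fold, and in T cell-like cells 0 of 10. Read against all genes, these were no larger a share than the background given for each class. The 3 of 10 upward in dendritic-like cells were a larger share. That share is not read as a result about the members, since Nlrc5 met the UMI minimum mostly through TBI, where it was higher. Of the 3, Psmb9 passed the fold in the Xcr1 or Clec9a gate alone, Tap2 in neither gate, and Nlrc5 had too few UMIs in the gates. No share of all genes past the fold was counted for the gates. Choroid plexus-like cells gave H2-D1 72.0 CPM in Sham and 108 CPM in TBI, B2m 66.0 CPM in Sham and 119 CPM in TBI and Psmb8 39.0 CPM in Sham and 17.8 CPM in TBI. These low values were carried by few cells, and the part of free RNA in them was not tested.

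The rest of the pathway was followed in 43 further genes of the matrices: constitutive proteasome subunits, proteasome activators, chaperones and trimming peptidases, other class I heavy chains, transcriptional regulators and the CD8 coreceptor. In dendritic-like cells 8 of 30 tested were past the fold upward and 2 downward, against 14.0% and 13.2% of all genes. Among them Irf1, an interferon-induced activator of class I promoters, stood at 52.5 CPM in Sham and 84.1 CPM in TBI, a ratio of 0.68 (0.26 to 1.11). H2-T23, which encodes the nonclassical Qa-1 chain, was at 0.33 (0.09 to 0.57), and Irf2, which opposes Irf1 at shared sites, was lower at -0.40 (-0.69 to -0.11). The proteasome activator subunits Psme1 (0.08, -0.05 to 0.21) and Psme2 (0.07, -0.09 to 0.24) and the constitutive Psmb5 (-0.09, -0.33 to 0.15) and Psmb6 (-0.04, -0.30 to 0.22) were near level, and Psmb7 was at 0.32 (-0.09 to 0.73). Ciita, the class II counterpart of Nlrc5, was at 0.15 (-0.08 to 0.38).

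In macrophage-like cells 4 of 34 were past the fold upward and 1 downward, no more than the 14.2% and 10.7% of all genes. Irf1 was higher, 82.8 CPM in Sham and 106 CPM in TBI, a ratio of 0.36 (0.07 to 0.66), as was the endosomal aminopeptidase Lnpep at 0.38 (0.07 to 0.71). The constitutive Psmb5, Psmb6 and Psmb7 lay within the fold here and in endothelial-like, B cell-like and T cell-like cells, with ratios from -0.26 to 0.14. In endothelial-like cells 0 of 29 were past it upward and 3 downward, against 17.4% and 15.6% of all genes, with Irf1 lower at -0.44 (-0.76 to -0.12). Irf1 thus pointed one way in dendritic-like and macrophage-like cells and the other in endothelial-like cells, and that difference was not tested.

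In B cell-like cells 3 of 31 were past the fold upward and 0 downward, no more than the 14.4% and 13.9% of all genes. Among them were the Q region genes H2-Q4 (0.52, 0.23 to 0.81) and H2-Q6 (0.42, 0.13 to 0.72). Genes of that region are closely similar to other class I genes, so both are uncertain as single genes. Psme1 (0.26, 0.06 to 0.45) and Psme2 (0.30, 0.07 to 0.53) were higher with intervals above 0. In T cell-like cells 3 of 29 were past it upward and 2 downward, no more than the 14.0% and 15.7% of all genes. Cd8a, the coreceptor that binds class I, was at 0.37 (0.06 to 0.69) there, and the chaperone Calr at 0.36 (0.04 to 0.69). Psme1 was again above 0, at 0.23 (0.05 to 0.41).

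Fibroblast-like cells had more of this wider set past the fold downward than upward, with 2 of 26 past the fold upward and 12 downward, against 18.5% and 24.5% of all genes, and a median of -0.18. Of 8 regulators tested, 7 were past it downward, with a median of -0.53, although all 8 rested on 20 or fewer Sham UMIs. Irf1, with 17 Sham UMIs, was at -0.35 (-1.09 to 0.53). The chaperone Canx was lower, 462 CPM in Sham and 348 CPM in TBI, a ratio of -0.41 (-0.69 to -0.13), and the constitutive Psmb5 higher, at 0.48 (0.00 to 1.04). Ptprc, a leukocyte gene, had 0 UMIs in Sham, which allows up to 10.5 CPM, and 34 in TBI fibroblast-like cells. The makeup of the fibroblast-like class differed between the libraries, as given above, and its part in these ratios was not tested.

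Over the 19 classes in both libraries, 38 points that share libraries and depth, the 10 members followed a common pattern, with pairwise Pearson correlations of 0.64 to 0.96 on log2(CPM + 10). The other genes whose pattern came nearest to the mean of the members were Tagln2 (r = 0.906), Psme1 (0.899), Arhgdia (0.894), H2-T22 (0.889) and H2-T23 (0.855), among genes with at least 500 UMIs. Tagln2 encodes a protein that binds actin. These correlations describe how the genes are spread over classes.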

How the data were processed

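Single-cell 3′ libraries of the Sham and TBI dorsal meninges were mapped to mm10 by the authors and deposited as raw UMI counts per gene and barcode, without normalization. The submitters' processing notes name Cell Ranger 2.1.1, the header of each matrix names software version 3.1.0, and no source used here names the annotation release. The notes also name Seurat 3.9.9 and DESeq2 1.30.0, which made none of the deposited counts used here.

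Cells with 150 to 5000 detected genes, at most 20% mitochondrial and at most 5% hemoglobin UMIs were kept, as the study states. This took 2699 Sham barcodes (9527334 UMIs) and 4349 TBI barcodes (15011079 UMIs) to 2043 and 3773 cells. Both libraries were clustered together with scanpy 1.11.5 and leidenalg 0.10.2 (Python 3.11.15, scipy 1.17.1): counts per 10000, log1p, 2000 variable genes without the members and the other class I presentation genes, 20 principal components, 20 neighbours, resolution 0.8, seed 1, no batch correction. Names were given to clusters with 3 or more markers of 1 class among their 150 genes of highest fold, each detected in at least 10% of the cells. That number of genes was set after the cluster names had been seen, most markers follow the study's own cluster tables, and cell annotation from the authors did not enter, so a difference from the study's populations may come from rebuilt names. Doublets were predicted by simulation, with 2 per cell, 40 neighbours and an expected rate of 0.8% per 1000 cells.

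UMIs were summed per class and library. CPM has an exact Poisson interval, shares exact binomial (Clopper-Pearson) intervals, and the log2 ratio, with 0.5 added to each sum, an exact binomial one, all at 95%. The floor for a count of 0 is 3 counts. No test between groups was made, since each is 1 library. Neighbours in an order of levels were called apart where the gap exceeded both the counting intervals and the gap between libraries. A log2 ratio beyond 0.32 in either direction was counted as past the fold threshold, in genes with at least 50 UMIs. Genes other than the members were named where they passed that fold with at least 200 UMIs in one of the 6 classes described, at most 4 per list and class, and the constitutive subunits, Psme1, Psme2, Irf1, Ciita, Cd8a and Ptprc by choice. The members and gene lists were chosen with earlier results of these data known. H2-T10, on the list of other heavy chains, was not analysed here, and 1 regulator named by the rule is not reported here. Steps for ratios and intervals were tested on simulated data.

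Alternatives were removing predicted doublets, letting the pathway genes into the variable genes, resolution 1.6, assigning cells singly by their markers, keeping cells with at least 1000 UMIs, averaging over cells, other scalings, no UMI minimum, single clusters and unthinned shares. Promoter windows are RefSeq's (GRCm38.p6) and gene positions GENCODE's (vM21), matched by symbol.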

Additional observations from a re-analysis of the deposited data

Results flagged for a closer look

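Barcodes with over 5% hemoglobin UMIs, 289 in Sham and 174 in TBI, entered no class and no ratio of TBI over Sham. Their heavy chain RNA was higher in TBI when hemoglobin UMIs were left out of the total. H2-K1 stood at 629 CPM in Sham and 1121 CPM in TBI, H2-D1 at 883 CPM in Sham and 1645 CPM in TBI and B2m at 571 CPM in Sham and 804 CPM in TBI. The share of these barcodes with a UMI was similar for the heavy chains, 16.6% in Sham and 16.1% in TBI for H2-K1 and 24.2% and 25.3% for H2-D1. For B2m it was 17.0% and 27.0%. Over the cells kept, on the same scale, H2-K1 was 1931 and 1761 CPM. The source of this RNA was not tested.

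Psmb9 pointed in opposite directions in fibroblast-like cells (-0.35, -0.95 to 0.34) and dendritic-like cells (0.54, 0.35 to 0.73), beyond 0.32 in both. The difference between the classes was not tested, and the interval in fibroblast-like cells held 0.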

How the results depend on the processing

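No paired analysis was possible because each group is 1 library, and the shared replicate number 1 pairs nothing. Immunoproteasome shares stayed within their counting intervals in 63 of 66 values. The 3 that did not were those without cells holding immune RNA, at 34.0% in TBI fibroblast-like cells and 3.55% and 2.75% in Sham and TBI choroid plexus-like cells. Of the log2 ratios of single members, 532 of 580 stayed within theirs, and of the mean CPM values 332 of 360. The ratios that left were unevenly spread over the settings. Averaging over cells moved 10 of 60 ratios and 18 of 60 CPM values, and assigning cells singly moved 5 and 10. Removing doublets, resolution 1.6, pathway genes among the variable genes, cells with at least 1000 UMIs and other scalings each moved 0 of 60 ratios. Most of these reuse nearly the same cells and counts, so the totals say little about stability. Single clusters moved 8 of 10 in cluster 8, 7 of 10 in cluster 21, 6 of 10 in cluster 14 and 4 of 10 in cluster 12. Clusters 2, 4 and 5 moved 0 of 10 each. Over all cells, weighting by the Sham class makeup moved 7 of 10. Shares of cells with a UMI did depend on thinning: unthinned, 102 of 120 left the interval of the thinned share. The median ratio of the members ranged from -0.02 to 0.07 in macrophage-like, 0.12 to 0.22 in endothelial-like, 0.13 to 0.18 in B cell-like, 0.15 to 0.18 in dendritic-like, 0.06 to 0.25 in T cell-like and -0.24 to -0.04 in fibroblast-like cells. No interval was made for a median, so each was set against the counting interval of its middle member. With an even number of members, the ends of the middle intervals were averaged. The one median outside that range was that of T cell-like cells, at 0.25 as a mean over cells, against 0.13. Nlrc5 in endothelial-like cells, on 6 and 17 UMIs, went from 0.32 to -0.09 as a mean over cells and to -2.90 in cluster 12 alone. Tap1 in endothelial-like cells ran from 0.30 to 0.73 and Psmb9 in fibroblast-like cells from -0.65 to -0.06, so neither kept its place beyond 0.32 under every alternative, and the cause was not tested.

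With no minimum of UMIs, more of the 43 other pathway genes passed the fold, except downward in dendritic-like cells, since more were counted. Upward and downward, they were 7 and 4 in macrophage-like, 3 and 6 in endothelial-like and 8 and 16 in fibroblast-like cells. They were 7 and 1 in B cell-like, 7 and 6 in T cell-like and 12 and 2 in dendritic-like cells. The share of all genes was not counted without the minimum, so these counts are not read as a result. Depth limits Nlrc5 and the fibroblast-like, choroid plexus-like and gated values most, where sums of UMIs are small.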

Other observations

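The 3 clusters without a name differed in these genes. Cluster 6 (53 Sham and 307 TBI cells, led by Snhg11, Foxp2 and Bnc2) had 142 and 249 CPM of H2-K1 and 164 and 172 CPM of B2m in Sham and TBI. The sum of Col1a1, Col1a2, Col3a1, Dcn, Sparc and Igfbp5 was 14772 and 18224 CPM there, beside 28369 and 26784 CPM in fibroblast-like cells. Of the fibroblast markers, Igfbp5 and Slc47a1 were among its leading genes, too few for the name. Its cells are not in the fibroblast-like sums given above. Cluster 13 (48 and 106 cells, led by F630028O10Rik and Dna2) had 897 and 954 CPM of H2-K1 and 415 and 500.4 CPM of B2m, and its immunoproteasome share was 76.3% (59.8 to 88.6) and 62.5% (50.3 to 73.6). Cluster 20 (9 and 47 cells) had 3 and 13 H2-K1 UMIs.

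Of the classes under 50 cells in a library, migratory dendritic-like cells had B2m at 4095 CPM in Sham and 5176 CPM in TBI, a ratio of 0.34 (0.20 to 0.47). Schwann-like cells (35 and 46) had B2m at 1599.8 CPM in Sham and 896 CPM in TBI, a ratio of -0.83 (-1.24 to -0.43), with H2-D1 at 0.25 (-0.12 to 0.64). Immune RNA in this class was also lower in TBI, at 1310 CPM in Sham and 196 CPM in TBI. The class joined cluster 22 (19 Sham and 36 TBI cells) and cluster 27 (16 and 10). The part of either in the B2m ratio was not tested. Neutrophil-like cells (16 and 26) had B2m at -0.85 (-1.48 to -0.21) and H2-D1 at 0.17 (-0.26 to 0.62). In monocyte-like cells (33 and 41) Tapbp stood at 355 CPM in Sham and 192 CPM in TBI, a ratio of -0.88 (-1.52 to -0.26), while H2-K1 (0.29, 0.07 to 0.52) and H2-D1 (0.22, 0.06 to 0.38) were above 0.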
